A study of Mus musculus with 15 samples.

Results

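The Hox genes were read in punches of the rostral ventrolateral medulla (RVLM) as marks of where along the brainstem each punch lay. Members were all protein-coding genes of the deposited count table whose symbol is Hox, a cluster letter from a to d and a number. The rule took 39 of 55421 genes and used no measured value. The table holds 15 libraries in 4 groups. Of the 39 members, 19 passed 1 CPM (counts scaled to library size) in at least 1 library and were tested, together with 15386 protein-coding genes in all.

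Hox genes encode homeodomain transcription factors that lie in 4 clusters, and the number of a member, its paralog number, gives its place in the cluster. In the embryo, members with low numbers are switched on far forward in the hindbrain, and members with higher numbers begin farther back, in the caudal medulla and the spinal cord. Many neurons keep this code in the adult, so that the highest paralog number present in a piece of brainstem marks how far caudal its cells arose. The midbrain and forebrain express no Hox genes.

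All groups carried floxed Atp6ap2, the X-linked gene of the prorenin receptor (PRR), and had a virus injected into the RVLM, the region whose bulbospinal neurons drive sympathetic outflow. DOCA-CRE (n = 3) was PRRf/f with AAV-CRE-GFP and DOCA-salt, DOCA-WT (n = 4) was PRRf/f with AAV-GFP and DOCA-salt, Baseline-CRE (n = 4) was PRRf/y with AAV-CRE-GFP, and Baseline-WT (n = 4) was PRRf/y with AAV-GFP. DOCA-salt means 13 days with a 50 mg deoxycorticosterone acetate pellet and 0.15 M NaCl to drink, started at least 3 weeks after the virus. The study's methods number the DOCA-salt libraries of the Cre and WT groups the other way round from the labels, which were followed here, so every value of DOCA-CRE against DOCA-WT rests on the labels. Baseline mice were a separate cohort taken 3 weeks after the virus, so that cohort and DOCA-salt cannot be told apart. The labelled genotype, PRRf/f on DOCA-salt and PRRf/y at baseline, runs with the cohort and cannot be told apart from DOCA-salt either. The study uses PRRf/y for hemizygous males, whereas the labels call all mice female. The mice were adults whose age the labels do not give, and Cre was active only where the virus reached. Punches were cut bilaterally from frozen brain, and the labels do not say how many animals made up a library. Their p-values therefore measure the spread between these libraries, which may be technical.

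Libraries held 19053970 to 30504796 counts each. Mitochondrial ribosomal RNA took 2.42% to 5.84% of counts in 6 of the 7 DOCA-salt libraries and 20.3% to 28.8% in the baseline libraries, and 19.1% in the library labelled DOCA-CRE replicate 3. That library also had 143 CPM of Atp6ap2, inside the 134 to 155 CPM of DOCA-WT, against 90.7 and 88.3 CPM in DOCA-CRE replicates 1 and 2. Atp6ap2 was 106 to 128 CPM in Baseline-CRE and 113 to 141 CPM in Baseline-WT. Between DOCA-CRE and DOCA-WT it did not pass (log2 difference -0.42, SE 0.14, edgeR adjusted p 0.214). Its level therefore puts the label of that library in doubt but does not settle it. The labels call all mice female, but 6 of the 15 libraries had the male pattern of Xist and Y-linked genes. These were DOCA-CRE replicates 1 and 2, DOCA-WT replicate 3, Baseline-CRE replicates 3 and 4 and Baseline-WT replicate 4. The groups were therefore not balanced in this pattern. Among markers of the C1 neurons that define the RVLM, Th ranged from 0.906 to 14.9 CPM, and Pnmt, which makes adrenaline, was near absent at 0 to 1.25 CPM.

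The members that passed were those of low paralog number. They included Hoxa2 to Hoxa7, Hoxb2 to Hoxb6, Hoxc4 to Hoxc6, Hoxd1, Hoxd3, Hoxd4 and Hoxd8. In coordinates of GRCm38, the clusters span chr6:52155590-52260880 for Hoxa with 11 members, chr11:96194316-96368256 for Hoxb with 10, chr15:102921103-103036852 for Hoxc with 9 and chr2:74668310-74765142 for Hoxd with 9. Of the 19, 14 passed 1 CPM in 3 or more libraries, and the highest paralog number among them was 5. The other 5, Hoxa6, Hoxb6, Hoxc6, Hoxa7 and Hoxd8, passed in 1 library only, DOCA-WT replicate 3. Entry through a high value in that library favours a higher DOCA-WT mean for those 5 in any comparison with that group. Counts are therefore also given over the 14. No member of paralogs 9 to 13 passed, nor did Hoxb1, Hoxb7, Hoxb8 and Hoxc8.

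**Figure D1:**
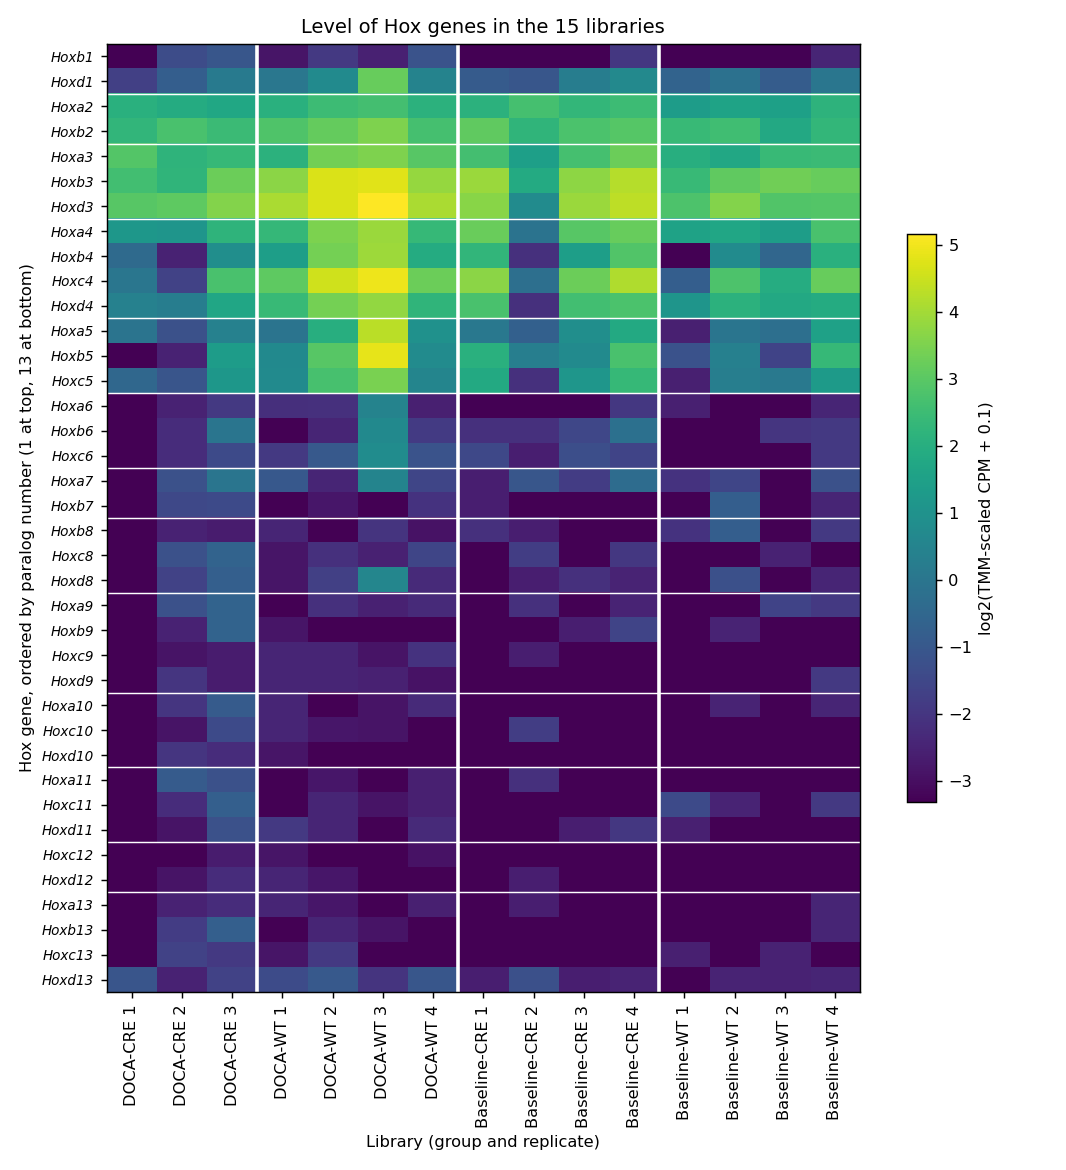
Level of the Hox genes (rows, by paralog number) in the 15 libraries (columns, by group), as log2 of CPM plus 0.1. Brighter colours are higher levels. Signal fills paralogs 1 to 5 and fades above them, and DOCA-WT replicate 3 has the brightest column in paralogs 4 and 5.

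Per kilobase of gene length, the highest mean levels over the 15 libraries were those of Hoxc4, at 3.67 CPM per kb, and Hoxa4, at 3.64 CPM per kb. This order differed between groups, since Hoxc4 averaged 0.997 CPM per kb in DOCA-CRE, 7.05 in DOCA-WT, 3.98 in Baseline-CRE and 1.97 in Baseline-WT. The highest member was Hoxd3 in DOCA-CRE at 2.22 CPM per kb, Hoxc4 in DOCA-WT, and Hoxa4 in Baseline-CRE at 4.24 and in Baseline-WT at 2.38 CPM per kb. Over the 15 libraries, the paralog 3 genes Hoxd3 and Hoxb3 followed at 3.29 and 2.89 CPM per kb. Hoxa2, which patterns the front of the hindbrain, stood at 2.43 CPM per kb, and its paralog Hoxb2, which acts in facial motor neurons, at 1.86 CPM per kb. Paralog 5 lay lower, at 1.51 CPM per kb for Hoxb5, 1.41 for Hoxa5, a gene needed in the respiratory motor circuit, and 0.838 for Hoxc5. The 5 members that passed in 1 library were at 0.0766 to 0.165 CPM per kb. These levels rest on reads whose assignment is uncertain for some members, since Hoxd3 and Hoxd4 share 62.3% and 52.3% of their exon bases with another annotated gene on the same strand.

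Taken as a class mean, the members of paralogs 9 to 13, which mark thoracic to sacral spinal cord, stayed near background in every library. As a yardstick of genes that brainstem should not express, 1424 olfactory and vomeronasal receptor genes were read the same way. Their mean was 0.0103, 0.0380 and 0.0809 CPM per kb in DOCA-CRE replicates 1 to 3, where paralogs 9 to 13 stood at 0.00934, 0.0516 and 0.107 CPM per kb. In DOCA-WT replicate 3, the library richest in Hox counts, the same means were 0.0120 CPM per kb for the receptor genes and 0.0115 CPM per kb for paralogs 9 to 13. Both background means were highest in DOCA-CRE replicate 2 and the library labelled DOCA-CRE replicate 3. There 38 and 39 of the 39 members had at least 1 count, against 14 to 34 in the other libraries. At this background a few reads of a high paralog cannot be read as expression. The class mean hides Hoxd13, the highest of these members, with 0 to 11 counts per library. In DOCA-WT it had 7, 10, 4 and 11 counts and averaged 0.124 CPM per kb, against 0.0174 CPM per kb for the receptor genes. In DOCA-CRE replicate 1 its 9 counts, 0.371 CPM, were all the reads of paralogs 9 to 13.

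**Figure D2:**
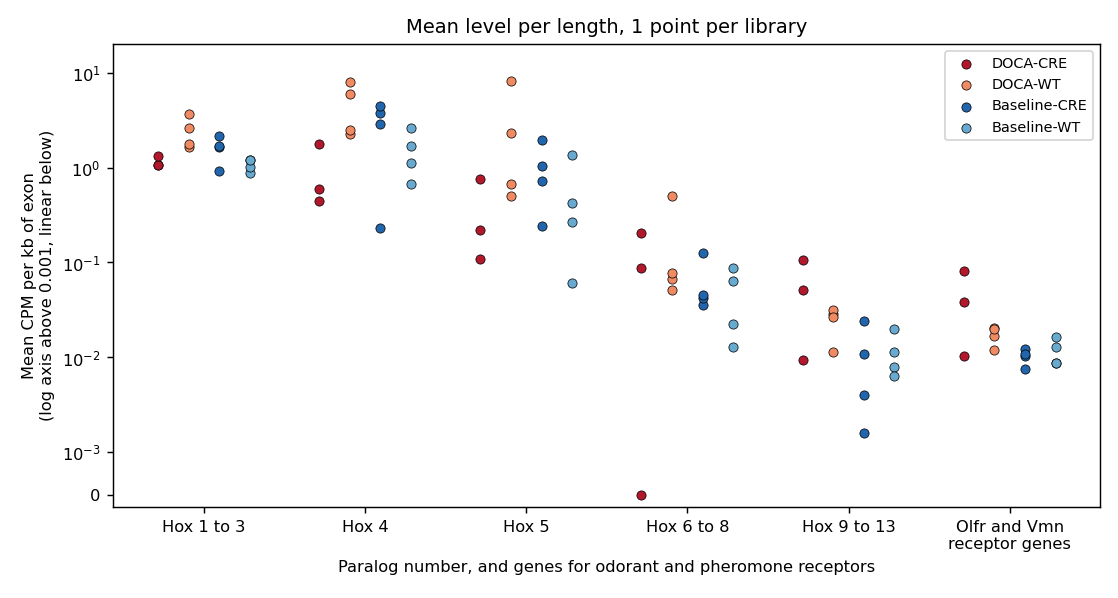
Mean CPM per kb (log axis) of each paralog class in each library, beside the mean of the olfactory and vomeronasal receptor genes. Paralogs 9 to 13 lie close to the receptor genes, as in the library labelled DOCA-CRE replicate 3 (0.107 and 0.0809 CPM per kb), while paralogs 1 to 3 lie well above.

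The libraries differed far more in the summed levels of paralogs 4 and 5 than in that of paralogs 1 to 3. Summed over paralogs 1 to 3, the level was 30.9, 29.3 and 37.6 CPM in DOCA-CRE, 47.4, 79.2, 103 and 52.2 CPM in DOCA-WT, 48, 20.6, 48.4 and 63.8 CPM in Baseline-CRE, and 25.1, 34.2, 30.1 and 33.1 CPM in Baseline-WT. Every DOCA-WT library stood above every DOCA-CRE and every Baseline-WT library. Paralog 4 summed to 4.95, 3.48 and 16 CPM in DOCA-CRE, 21, 55.4, 75 and 22.9 CPM in DOCA-WT, 33.7, 1.86, 25.8 and 40.8 CPM in Baseline-CRE, and 5.45, 15.9, 10.3 and 23.5 CPM in Baseline-WT. Here the DOCA-WT libraries again lay above those of DOCA-CRE, while they overlapped with Baseline-WT and Baseline-CRE. Paralog 5 summed to 1.48, 0.778 and 5.89 CPM in DOCA-CRE, 3.94, 18, 59.7 and 4.84 CPM in DOCA-WT, 8.55, 1.8, 5.41 and 15.1 CPM in Baseline-CRE, and 0.483, 3.22, 1.96 and 10.2 CPM in Baseline-WT. All groups overlapped in paralog 5, and 1 library, DOCA-WT replicate 3, held the top value.

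**Figure D3:**
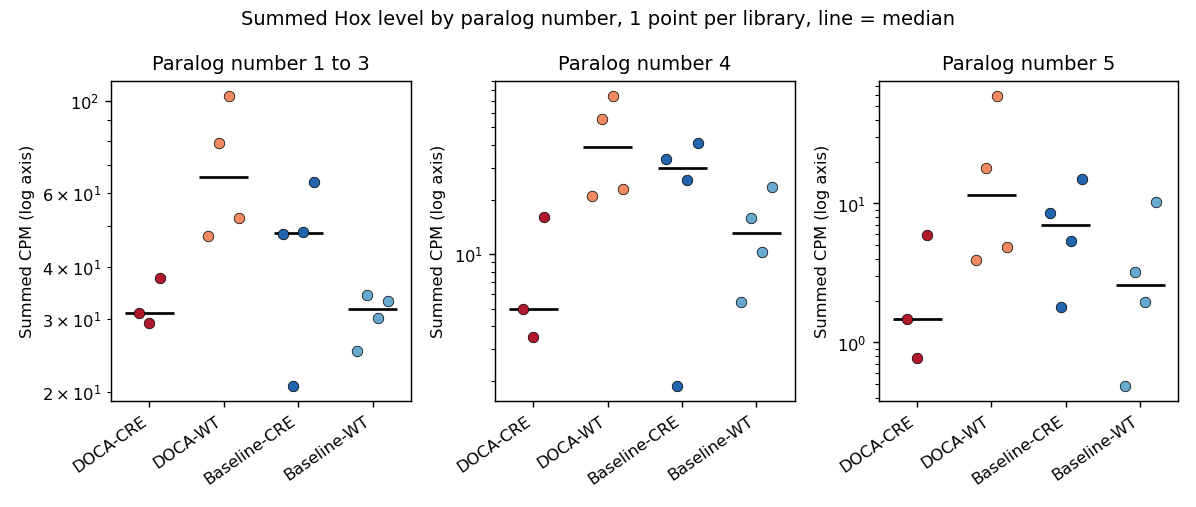
Summed CPM (log axis) of paralogs 1 to 3, 4 and 5 in each library, with a line at each group's median. In paralog 4 the libraries run between 1.86 CPM in Baseline-CRE replicate 2 and 75 CPM in DOCA-WT replicate 3.

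Within this spread, single libraries were high or low across many members. Over the 7 members of paralogs 4 and 5, DOCA-WT replicate 3 was the highest library for 7 of 7. DOCA-CRE replicate 2 was among the 3 lowest for 7 of 7, Baseline-CRE replicate 2 for 6 of 7, Baseline-WT replicate 1 for 4 of 7 and DOCA-CRE replicate 1 for 3 of 7. The highest library exceeded the lowest by 2.5-fold for Hoxa2 and 3.38-fold for Hoxb2. The same ratio was 7.76 for Hoxb3, 17.8 for Hoxa4, 22.5 for Hoxd3 and 140 for Hoxc4. Hoxd1, a paralog 1 gene, did not follow its paralog number and had a ratio of 43.9, with its top value in DOCA-WT replicate 3. The biological coefficient of variation, the replicate spread left after counting error, was 0.191 for Hoxa2, 0.451 for Hoxd3, 0.523 for Hoxa4 and 0.638 for Hoxd1, and reached 0.850 for Hoxc4, 0.979 for Hoxb4 and 1.11 for Hoxb5. For Hoxb5 it exceeded that of 99.8% of genes tested, whereas genes of its level had 0.265 on the fitted trend. Hoxb4 and Hoxb5 were singled out here after their values were seen.

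Members not given library by library are described by their group means (± SD, n = 3 in DOCA-CRE and 4 in the other groups). Hoxd1, which lies at the end of its cluster next to Hoxd3, averaged 0.562 ± 0.403 CPM in DOCA-CRE, 3.22 ± 3.9 CPM in DOCA-WT, 0.862 ± 0.539 CPM in Baseline-CRE and 0.678 ± 0.21 CPM in Baseline-WT. Hoxa3, needed for the derivatives of the third pharyngeal arch, averaged 5.67 ± 1.55 CPM in DOCA-CRE, 8.42 ± 3.16 CPM in DOCA-WT, 6.14 ± 2.76 CPM in Baseline-CRE and 4.46 ± 1.02 CPM in Baseline-WT. In both genes DOCA-WT had the highest mean and the widest spread. Of the paralog 4 genes, Hoxb4 averaged 0.819 ± 0.835 CPM in DOCA-CRE, 7.95 ± 5.88 CPM in DOCA-WT, 3.67 ± 3.01 CPM in Baseline-CRE and 1.58 ± 1.81 CPM in Baseline-WT. Hoxd4 averaged 1.84 ± 1.15 CPM in DOCA-CRE, 8.53 ± 4.42 CPM in DOCA-WT, 4.89 ± 3.19 CPM in Baseline-CRE and 3.35 ± 0.928 CPM in Baseline-WT. DOCA-CRE had the lowest mean in both. In paralog 5, Hoxa5 averaged 0.807 ± 0.447 CPM in DOCA-CRE, 6.5 ± 8.67 CPM in DOCA-WT, 1.67 ± 1.3 CPM in Baseline-CRE and 1.12 ± 1.17 CPM in Baseline-WT. Hoxb5 averaged 0.858 ± 1.42 CPM in DOCA-CRE, 10 ± 13.2 CPM in DOCA-WT, 3.35 ± 2.54 CPM in Baseline-CRE and 1.72 ± 2.29 CPM in Baseline-WT, and Hoxc5 1.05 ± 0.973 CPM in DOCA-CRE, 5.08 ± 4.58 CPM in DOCA-WT, 2.7 ± 2.09 CPM in Baseline-CRE and 1.14 ± 0.949 CPM in Baseline-WT. In Hoxa5 and Hoxb5 the SD in DOCA-WT exceeded the mean, with DOCA-WT replicate 3 at the top. In Hoxc5 DOCA-WT replicates 2 and 3 were both high, at 6.42 and 11 CPM, and replicates 1 and 4 had 1.56 and 1.36 CPM. Hoxa6 averaged 0.0802 ± 0.0835 CPM in DOCA-CRE, 0.404 ± 0.597 CPM in DOCA-WT, 0.0394 ± 0.0788 CPM in Baseline-CRE and 0.0377 ± 0.0439 CPM in Baseline-WT.

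Baseline-CRE replicate 2 stood apart in another way. Its Hoxa2 level, at 6.22 CPM, was the highest of the 15 libraries, while Hoxd3 at 1.6 CPM, Hoxb3 at 3.59 CPM and Hoxa4 at 0.833 CPM were the lowest. En1, a transcription factor of the midbrain-hindbrain border, was 13.7 CPM in that library, against 2.17, 2.12 and 3.47 CPM in the other Baseline-CRE libraries. Chat, the enzyme that makes acetylcholine in motor neurons, was 4.55 CPM there, against 127, 125 and 54.3 CPM. The 10 genes of the list of rostral position marks summed to 21 CPM in that library and to 5.66 to 7.96 CPM in the other Baseline-CRE libraries. DOCA-CRE replicate 1 was higher still, at 23 CPM for the list and 15.3 CPM for En1. Markers of the inferior olive, a nucleus of the caudal medulla, instead set DOCA-WT replicate 3 apart, where the 5 listed genes summed to 626 CPM, against 84.3 to 325 CPM in the other libraries. There the olive genes Htr5b, Foxp2 and Crh reached 55.6, 83.4 and 78 CPM. The part of these markers in the Hox differences was not tested.

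The first comparison asked how WT punches taken on DOCA-salt differ from WT punches of the baseline cohort. Hox genes were higher in DOCA-WT than in Baseline-WT. Of the 19 tested members, 5 rose (Hoxa2, Hoxb2, Hoxb3, Hoxd3 and Hoxc6), none fell and 14 did not pass the test, where 5.18% of all genes tested rose and 5.65% fell. The test was edgeR's quasi-likelihood test, passed where the p adjusted by Benjamini and Hochberg across all genes tested did not exceed 0.05. In bulk tissue, fewer cells of a type and less RNA per cell cannot be told apart. The 14 broadly measured members were on the higher side in 14 of 14, with a median log2 difference of 1.44, against a median of 0.01 over all genes. Of these 14, 4 rose, and 13 had an unadjusted p under 0.05, which 13.3% of all genes reached on the higher side. Over all genes 797 rose and 869 fell, and with scaling by library totals alone 1568 rose and 411 fell, with 6 Hox genes higher and none lower. The count rested on single libraries. It was 0 without DOCA-WT replicate 2, DOCA-WT replicate 3, Baseline-WT replicate 1 or Baseline-WT replicate 3, 1 without Baseline-WT replicate 2, Baseline-CRE replicate 1 or Baseline-CRE replicate 3, 2 without Baseline-WT replicate 4, 3 without Baseline-CRE replicate 4, and 8 without DOCA-WT replicate 1.

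Hoxa2 (chr6:52162417-52164831, minus strand) had 4.14, 5.59, 6.06 and 4.35 CPM in DOCA-WT, against 2.48, 2.98, 2.72 and 4.43 CPM in Baseline-WT. The groups overlapped through Baseline-WT replicate 4, and the log2 difference of 0.68 (SE 0.21) passed the edgeR test at an adjusted p of 0.0491. Hoxb2 (chr11:96350525-96354012, plus strand) had 7.06, 8.92, 11.5 and 6.34 CPM in DOCA-WT, against 5.18, 5.87, 3.4 and 4.84 CPM in Baseline-WT. Here every DOCA-WT library was above every Baseline-WT library, with a log2 difference of 0.81 (SE 0.23, edgeR adjusted p 0.0347).

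The paralog 3 genes, which act in the glossopharyngeal segments of the hindbrain, had larger fitted differences. Hoxb3 (chr11:96323326-96347930, plus strand) had 12.9, 25.9, 27.9 and 14 CPM in DOCA-WT, against 5.18, 8.44, 10.1 and 9.18 CPM in Baseline-WT. The groups did not overlap, and the log2 difference was 1.30 (SE 0.40, edgeR adjusted p 0.0467). Hoxd3 (chr2:74711927-74748442, plus strand) had 17, 26, 36.1 and 17.2 CPM in DOCA-WT, against 6.9, 12, 7.25 and 7.3 CPM in Baseline-WT. It was likewise separate, at 1.53 (SE 0.46, edgeR adjusted p 0.0458). Hoxa3, on the same side at 0.92 (SE 0.34), did not pass, with an edgeR adjusted p of 0.0948.

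Paralog 4 and 5 members varied more between replicates, and none passed. Hoxa4 had 4.96, 11.1, 14.9 and 5.12 CPM in DOCA-WT, against 2.9, 3.14, 2.57 and 6.56 CPM in Baseline-WT. Baseline-WT replicate 4 lay inside the DOCA-WT range, and the log2 difference was 1.26 (SE 0.55, edgeR adjusted p 0.151). Hoxc4 had 8.29, 23.5, 31.2 and 9.5 CPM in DOCA-WT, against 0.483, 6.92, 3.7 and 9.18 CPM in Baseline-WT. Its difference of 1.85 (SE 0.86) had an edgeR adjusted p of 0.179. For paralog 5 the log2 differences were 2.56 (SE 0.92) for Hoxa5, 2.58 (SE 1.13) for Hoxb5 and 2.18 (SE 0.89) for Hoxc5, and DOCA-WT replicate 3 alone held 19.4, 29.3 and 11 CPM of these genes.

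Hoxc6 (chr15:102998257-103011881, plus strand), a gene of the cervical and brachial spinal cord, passed with very few reads. It had 4, 10, 46 and 10 counts in DOCA-WT, against 0, 0, 0 and 2 counts in Baseline-WT. In CPM these are 0.164, 0.417, 1.66 and 0.348 in DOCA-WT and 0, 0, 0 and 0.164 in Baseline-WT. The fitted log2 difference of 3.87 (SE 1.17, edgeR adjusted p 0.0444) depends on how zeros are handled and is no bound, and it was 6.69 (edgeR adjusted p 0.0446) without Baseline-WT replicate 4, the 1 Baseline-WT library with reads. Hoxa7 had 0.41, 0.0834, 1.33 and 0.244 CPM in DOCA-WT, against 0.138, 0.241, 0 and 0.328 CPM in Baseline-WT, and the groups overlapped. Hoxb6 had 0, 0.0834, 1.55 and 0.174 CPM in DOCA-WT, against 0, 0, 0.151 and 0.164 CPM in Baseline-WT. Hoxd8 had 0.041, 0.208, 1.41 and 0.104 CPM in DOCA-WT, against 0, 0.322, 0 and 0.082 CPM in Baseline-WT. For these genes DOCA-WT replicate 3 held most of the signal, and the other DOCA-WT libraries lay within or near the Baseline-WT range.

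**Figure D4:**
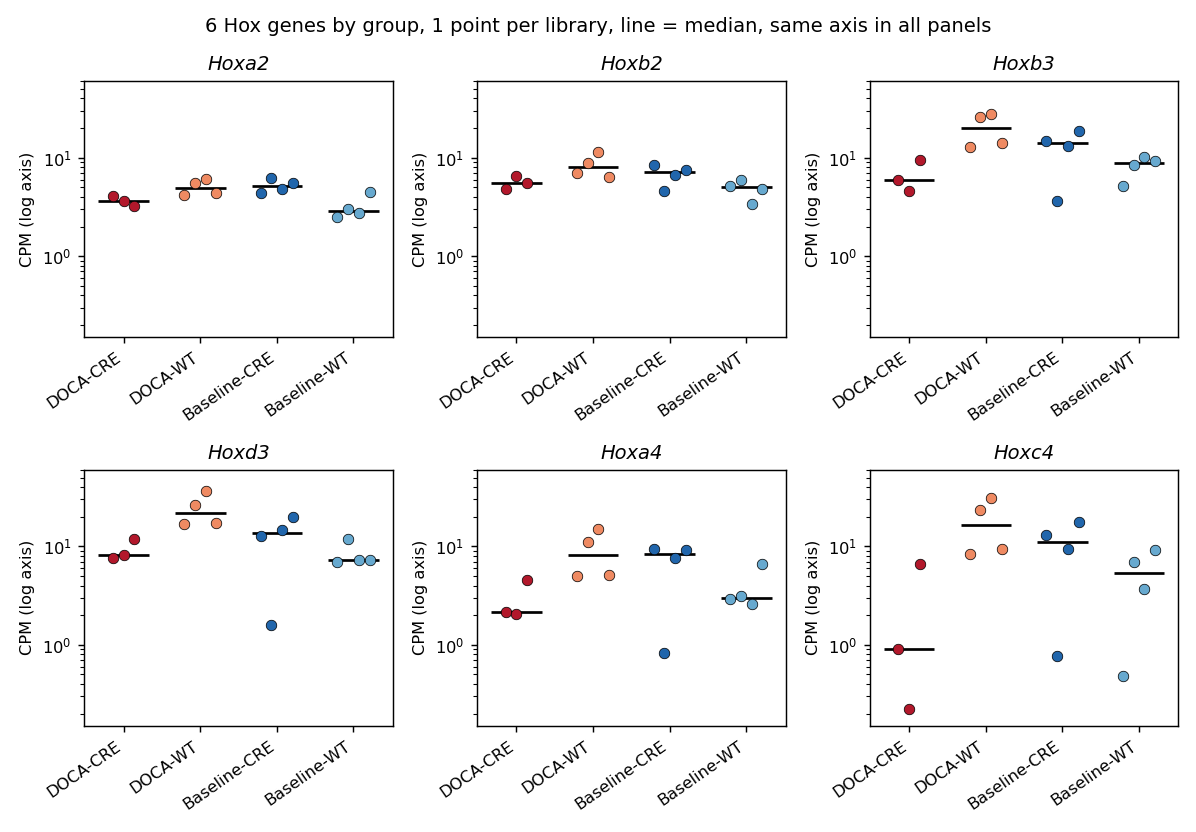
CPM (log axis) of Hoxa2, Hoxb2, Hoxb3, Hoxd3, Hoxa4 and Hoxc4 in each library, by group. Hoxb3 in DOCA-WT runs from 12.9 to 27.9 CPM, above the 5.18 to 10.1 CPM of Baseline-WT, and Baseline-CRE replicate 2 is the low point in Hoxd3, Hoxb3 and Hoxa4.

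Without a test, 5 of the 14 broadly measured members (Hoxd1, Hoxd3, Hoxd4, Hoxb2 and Hoxb3) had every DOCA-WT library above every Baseline-WT library, which 9.06% of all genes tested did. Hoxc6, which entered through DOCA-WT replicate 3, had 0.164 CPM both in the lowest DOCA-WT and in the highest Baseline-WT library and is not counted. In exact two-sided permutation tests of single genes, Hoxb2, Hoxb3 and Hoxd3 each reached p = 0.0286 with 4 libraries a group, the smallest value that 4 against 4 allows. Adjusted over the 40 tests run, this was 0.163.

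Promoters of 3 members are shown because Hoxa2 rose in DOCA-WT, while Hoxb4 and Hoxd4 are paralog 4 genes with large differences between punches. Each is the 250 bases before the RefSeq start on GRCm38.p6, read 5′ to 3′ on the strand of the gene: Hoxa2 at chr6:52164832-52165081 on the minus strand, Hoxb4 at chr11:96318017-96318266 on the plus strand and Hoxd4 at chr2:74721728-74721977 on the plus strand. Capitals in Hoxa2 mark a Pbx-Hox type motif (TGATTGAT, here as its reverse ATCAATCA) 111 bases before the start and a Meis type motif (TGACAG) 44 bases before it. Capitals in Hoxb4 and Hoxd4 mark the core hexamer of retinoid receptor sites (AGGTCA, here as TGACCT) at 81 and 145 bases before the start.
Hoxa2: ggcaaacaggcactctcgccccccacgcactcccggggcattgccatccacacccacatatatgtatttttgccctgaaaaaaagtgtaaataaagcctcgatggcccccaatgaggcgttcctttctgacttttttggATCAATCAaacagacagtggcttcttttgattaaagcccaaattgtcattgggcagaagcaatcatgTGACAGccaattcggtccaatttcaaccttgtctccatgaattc
Hoxb4: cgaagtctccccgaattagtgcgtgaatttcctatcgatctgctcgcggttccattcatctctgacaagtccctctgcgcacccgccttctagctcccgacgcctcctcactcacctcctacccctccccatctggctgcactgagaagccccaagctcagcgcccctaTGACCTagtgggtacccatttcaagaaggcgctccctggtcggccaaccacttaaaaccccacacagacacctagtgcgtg
Hoxd4: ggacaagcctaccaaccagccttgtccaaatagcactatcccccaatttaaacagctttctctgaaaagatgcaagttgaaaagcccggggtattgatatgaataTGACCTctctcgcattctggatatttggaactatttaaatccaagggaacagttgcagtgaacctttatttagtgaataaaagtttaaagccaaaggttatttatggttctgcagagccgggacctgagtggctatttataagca
Searched on both strands, with no overlap between the motifs shown, TGATTGAT was in 0.67% of the 32851 promoters in the reference table, TGACAG in 15.9% and AGGTCA in 14% of them. Among the 24 Hox promoters in it, which stand for 22 of the 39 members, they were in 2 (Hoxa2 and Hoxd11), 2 (Hoxa2 and Hoxa3) and 6 (Hoxb4, Hoxc4, Hoxd3, Hoxd4, Hoxd8 and Hoxd10). A match describes the letters and is not a shown binding site.

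The next comparison asked whether Cre-treated punches differ from WT punches on DOCA-salt. Hox levels were lower in DOCA-CRE than in DOCA-WT libraries, but no member passed the test. Of the 19 members, 0 rose and 0 fell in edgeR at the adjusted p, where 0.013% of all genes tested fell and none rose. At an unadjusted p under 0.05, 11 of the 14 broadly measured members were lower, against 7.84% of all genes. DESeq2 called 1 lower (Hoxd1) and limma voom 0. The 14 broadly measured members lay on the lower side in 14 of 14, with a median log2 difference of -1.94 against 0.02 over all genes. Every DOCA-CRE library was below every DOCA-WT library for 7 of the 19 members (Hoxa2, Hoxa4, Hoxb3, Hoxb4, Hoxc4, Hoxd3 and Hoxd4), which 5.2% of all genes showed. Over all genes 0 rose and 2 fell, but 21 rose and 145 fell without the library labelled DOCA-CRE replicate 3, and 17 rose and 86 fell without DOCA-WT replicate 4, with 0 Hox genes among them each time.

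Hoxb3 had 5.94, 4.63 and 9.5 CPM in DOCA-CRE, against 12.9, 25.9, 27.9 and 14 CPM in DOCA-WT. The log2 difference was -1.60 (SE 0.44, edgeR adjusted p 0.146). Hoxd3 had 7.67, 8.26 and 12 CPM in DOCA-CRE, against 17, 26, 36.1 and 17.2 CPM in DOCA-WT, a difference of -1.38 (SE 0.50, edgeR adjusted p 0.229). Hoxc4 had 0.907, 0.222 and 6.55 CPM in DOCA-CRE, against 8.29, 23.5, 31.2 and 9.5 CPM in DOCA-WT, with -2.90 (SE 1.01, edgeR adjusted p 0.215). Without the library labelled DOCA-CRE replicate 3 this Hoxc4 difference was -5.01 (SE 1.23, edgeR adjusted p 0.0629). In Hoxb3, Hoxd3 and Hoxc4 the library labelled DOCA-CRE replicate 3 was the one nearest to DOCA-WT. Hoxa4, at 2.14, 2.07 and 4.55 CPM in DOCA-CRE and 4.96 to 14.9 CPM in DOCA-WT, showed the same order (-1.64, SE 0.60, edgeR adjusted p 0.234). Hoxd1, of paralog 1, was at -2.55 (SE 0.78, edgeR adjusted p 0.174). The paralog 2 genes had smaller differences. Hoxa2 had 4.12, 3.63 and 3.22 CPM in DOCA-CRE, against 4.14, 5.59, 6.06 and 4.35 CPM in DOCA-WT (-0.46, SE 0.22, edgeR adjusted p 0.359), and Hoxb2 had 4.78, 6.56 and 5.5 CPM, against 7.06, 8.92, 11.5 and 6.34 CPM (-0.59, SE 0.24, edgeR adjusted p 0.289). Of the genes given here by library, Hoxb2 alone had overlapping groups.

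The low-count members gave no usable direction here. Hoxc6 had 0, 3 and 5 counts in DOCA-CRE, against 4, 10, 46 and 10 in DOCA-WT. Hoxa7 had 0, 9 and 16 counts in DOCA-CRE, against 10, 2, 37 and 7 in DOCA-WT, and Hoxb6 had 0, 3 and 16 counts, against 0, 2, 43 and 5. Hoxd8 was at 0, 6 and 9 counts in DOCA-CRE, against 1, 5, 39 and 3 in DOCA-WT. The groups overlapped in each of the 4 genes, and the DOCA-CRE reads came from the libraries with the highest background. For Hoxa7 and Hoxb6 the sign turned without DOCA-CRE replicate 1, to 0.19 (edgeR adjusted p 0.963) and 0.05 (edgeR adjusted p 0.992).

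**Figure D5:**
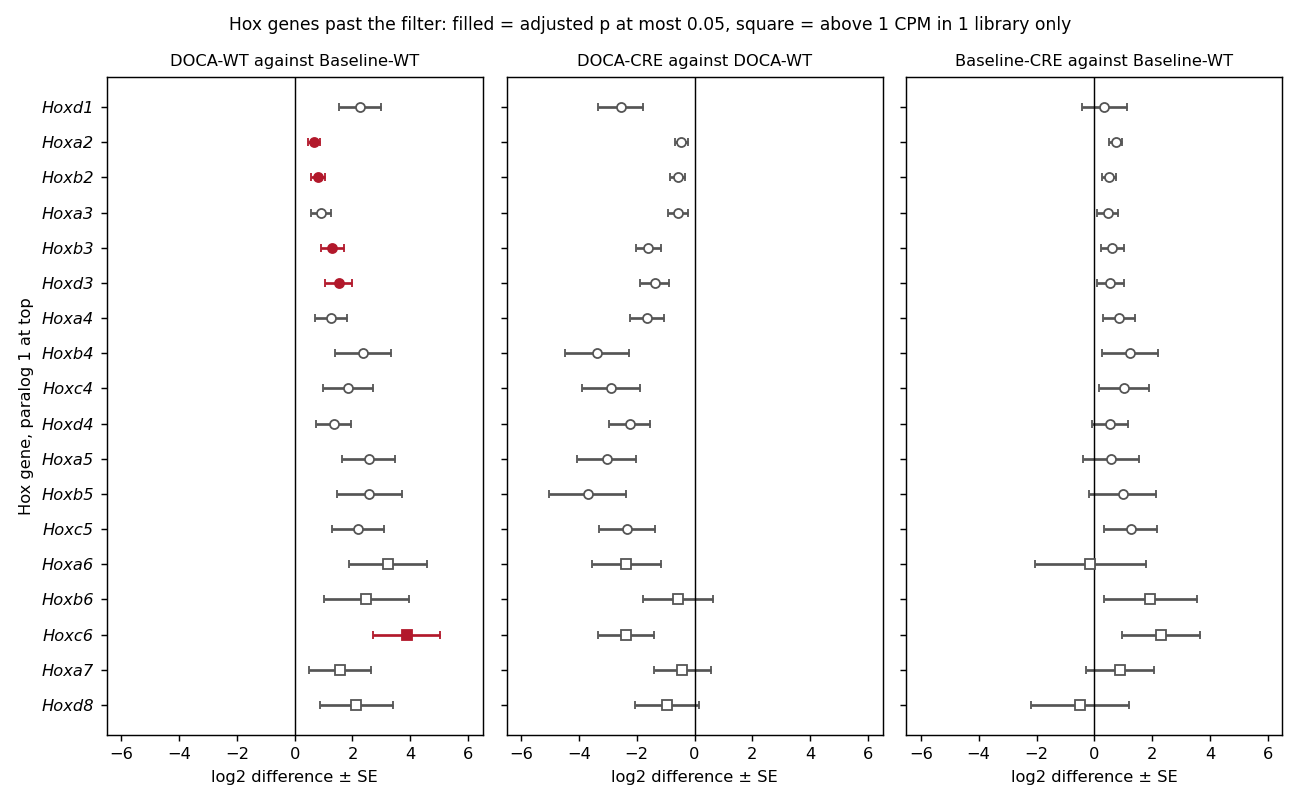
Log2 difference with its SE for tested members in 3 comparisons. Filled points passed the test, and squares are members above 1 CPM in 1 library only. The 5 filled points, from 0.68 for Hoxa2 to 3.87 for Hoxc6, are all in DOCA-WT against Baseline-WT.

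In the baseline cohort, before any DOCA-salt, Hox genes did not pass between Baseline-CRE and Baseline-WT. None of the 19 members rose or fell in edgeR, where 0% of all genes did. At an unadjusted p under 0.05, 2 were higher (Hoxa2 and Hoxb2), against 5.28% of all genes, and DESeq2 and limma voom called 0. The 14 broadly measured members nevertheless stood on the higher side in 14 of 14, with a median log2 difference of 0.59, a range of 0.33 to 1.25 and a median of 0 over all genes. Hoxa2 had 4.34, 6.22, 4.79 and 5.52 CPM in Baseline-CRE, against 2.48, 2.98, 2.72 and 4.43 CPM in Baseline-WT (0.73, SE 0.21, edgeR adjusted p 0.445). Hoxc4 had 12.9, 0.769, 9.46 and 17.7 CPM in Baseline-CRE, against 0.483, 6.92, 3.7 and 9.18 CPM in Baseline-WT (1.02, SE 0.87, edgeR adjusted p 0.731). Its 3 higher Baseline-CRE libraries lay above the Baseline-WT range, and Baseline-CRE replicate 2 near its lower end.

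Across the cohorts in Cre-treated mice, Hox levels leaned the other way. Between DOCA-CRE and Baseline-CRE, 0 of the 19 members rose and 0 fell in edgeR, where 2.5% of all genes tested rose and 4.36% fell. At an unadjusted p under 0.05, 1 was lower (Hoxa2), against 13.3% of all genes, and DESeq2 and limma voom called 0. The 14 broadly measured members were on the lower side in 14 of 14, with a median log2 difference of -0.99 against 0.01 over all genes. Baseline-CRE replicate 2 and the library labelled DOCA-CRE replicate 3 each weigh on this result, since without either 1 member fell, Hoxd4 and Hoxc4, in that order. Hoxa2 had 4.12, 3.63 and 3.22 CPM in DOCA-CRE, against 4.34, 6.22, 4.79 and 5.52 CPM in Baseline-CRE (-0.51, SE 0.22, edgeR adjusted p 0.165). Hoxa2 was the 1 member of 19 in which every DOCA-CRE library lay below every Baseline-CRE library, as 12.3% of all genes did.

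The difference between the DOCA-salt responses, DOCA-CRE minus Baseline-CRE less DOCA-WT minus Baseline-WT, was tested in the same fit. Of the 19 members 0 were called in edgeR, where 0.0195% of all genes tested were higher and 0.494% lower. At an unadjusted p under 0.05, 12 of the 14 broadly measured members were lower, against 9.18% of all genes. DESeq2 called 2 lower (Hoxa2 and Hoxb3) and limma voom 0. The 14 broadly measured members lay on the lower side in 14 of 14, with a median of -2.63. Hoxa2 was at -1.19 (SE 0.31, edgeR adjusted p 0.0774) and Hoxb3 at -2.21 (SE 0.59, edgeR adjusted p 0.0828). Without Baseline-CRE replicate 2 this count was 4 (Hoxd3, Hoxd4, Hoxa4 and Hoxb3), without Baseline-WT replicate 4 it was 1 (Hoxa2) and without the library labelled DOCA-CRE replicate 3 it was 1 (Hoxc4). All these comparisons share groups, so their signs are not separate evidence.

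Taken as cohorts, with Cre and WT mice weighted alike, no Hox gene passed the test between DOCA-salt and baseline punches. edgeR called 0 of 19, where 8.09% of all genes tested rose and 10% fell. At an unadjusted p under 0.05 the count was also 0, where 16.9% of all genes were higher and 16.2% lower, and DESeq2 and limma voom called 0. The 14 broadly measured members had a median log2 difference of 0.22. Mitochondrial ribosomal RNA split these cohorts in all but 1 library, and its part in the differences between DOCA-WT and Baseline-WT cannot be told apart from that of DOCA-salt.

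Genes that work with or upstream of Hox proteins were counted in 4 lists, beside the 5.18% of all genes that rose and the 5.65% that fell in DOCA-WT against Baseline-WT. Of 9 tested cofactors of the Pbx, Meis and related families, 1 rose in that comparison, Meis3, a partner of Hox proteins in hindbrain patterning. Meis3 had 19.5, 23.3, 27.8 and 21.8 CPM in DOCA-WT, against 11.9, 13.9, 14 and 13.4 CPM in Baseline-WT, and the groups were separate (log2 difference 0.80, SE 0.15, edgeR adjusted p 0.00474). Among 14 tested regulators of Hox chromatin, 2 rose and 2 fell. Kmt2a, the methyltransferase that keeps Hox genes on, rose by 0.47 (SE 0.10, edgeR adjusted p 0.0104) and the Polycomb gene Cbx7 by 0.55 (SE 0.12, edgeR adjusted p 0.00934). Ezh2, the Polycomb methyltransferase, fell by 1.09 (SE 0.22, edgeR adjusted p 0.00699) and Bmi1, named here after its value was seen, fell by 0.41 (SE 0.12, edgeR adjusted p 0.0443). None of 16 retinoic acid genes and none of 6 hindbrain segment genes passed, and the median log2 differences of these lists were -0.09 and 0.12. In DOCA-CRE against DOCA-WT no member of these 4 lists passed, where 0.013% of all genes tested fell and none rose. With so few genes called, this says little about the lists.

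Other genes annotated inside the clusters were read next, among them RNAs without coding potential. Several lie on the strand opposite to a member, and the sources do not say whether counting used strand. Hoxb3os covers 52.9% of the exon bases of Hoxb3 from the other strand and 27.3% of those of Hoxb2. It had 7.71, 9.09, 7.46 and 11.5 CPM in DOCA-WT, against 8.01, 7.96, 7.93 and 10.1 CPM in Baseline-WT. The groups overlapped (log2 difference 0.10, edgeR adjusted p 0.775), while Hoxb3 and Hoxb2 differed. Hotairm1, at the front of the Hoxa cluster, had 5.05 to 7.5 CPM in DOCA-WT and 5.06 to 7.87 CPM in Baseline-WT (0.19, edgeR adjusted p 0.504). Hoxaas2 rose, with 3.16, 4.92, 5.59 and 4.63 CPM in DOCA-WT, against 2.83, 2.65, 2.64 and 2.54 CPM in Baseline-WT (0.81, edgeR adjusted p 0.0246). Gm28230, annotated as protein-coding over the exons of Hoxd3 and Hoxd4, followed these 2 genes. It had 17.1, 27.8, 37.8 and 16.4 CPM in DOCA-WT, against 6.63, 12.5, 7.33 and 8.44 CPM in Baseline-WT (1.54, edgeR adjusted p 0.0576). Reads of these overlapping genes cannot be told apart.

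Several markers of the raphe and of C1 neurons were also higher in DOCA-WT than in Baseline-WT. Of 11 raphe serotonin genes, 10 rose in DOCA-WT. Tph2, the enzyme of serotonin synthesis in the brain, had 91.2, 63, 98.2 and 169 CPM in DOCA-WT, against 1.38, 1.93, 3.02 and 4.34 CPM in Baseline-WT (log2 difference 5.32, edgeR adjusted p 0.000173). The raphe list summed to 264 to 485 CPM in DOCA-WT and to 52.8 to 78.3 CPM in Baseline-WT. Library by library it did not follow the Hox levels. In DOCA-WT replicates 1 to 4 it was 328, 264, 363 and 485 CPM, beside 21, 55.4, 75 and 22.9 CPM of paralog 4. Baseline-CRE replicates 1, 3 and 4 had 77.6, 73 and 75.3 CPM of the raphe list, beside 33.7, 25.8 and 40.8 CPM of paralog 4. Of 9 C1 catecholamine genes 5 rose (Th, Dbh, Ddc, Slc18a2 and Agtr1a), and the list summed to 109 to 182 CPM in DOCA-WT and to 36.1 to 53.1 CPM in Baseline-WT. Rostral marks rose too. En1, at 5.99, 8.21, 4.62 and 5.88 CPM in DOCA-WT, against 0.759, 1.21, 0.453 and 3.28 CPM in Baseline-WT, was separate (2.13, edgeR adjusted p 0.0465), and 2 of 5 tested genes of the rostral list passed (En1 and Lhx2). The list as a whole summed to 10.3 to 14.6 CPM in DOCA-WT and to 2.81 to 7.95 CPM in Baseline-WT. Of the rostral list Emx1 and Otx1 were at 0 in every Baseline-WT library.

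For the inferior olive, 2 of 5 genes rose (Htr5b and Crh), and the list summed to 131, 182, 626 and 164 CPM in DOCA-WT, against 116, 120, 126 and 182 CPM in Baseline-WT. Only DOCA-WT replicate 3 stood clearly above the Baseline-WT range. Cholinergic motor neuron genes, 8 of them tested, did not pass in any direction. Their sum was 1340, 178, 83.1 and 929 CPM in DOCA-WT, against 1850, 1850, 1670 and 1280 CPM in Baseline-WT. Both DOCA-WT libraries with the most Hox counts, replicates 2 and 3, had the lowest motor neuron sums of their group. This did not hold across groups, since Baseline-CRE replicate 2 had the fewest Hox counts of the 15 libraries, 407, and also the lowest motor neuron sum, 34.7 CPM. In DOCA-CRE against DOCA-WT no gene of these marker lists passed, where 0.013% of all genes tested fell and none rose. So few genes were called that this does not show the lists to be alike in the 2 groups. The raphe list summed to 112, 69.4 and 219 CPM in DOCA-CRE, against 328, 264, 363 and 485 CPM in DOCA-WT. The part of these cell types in the Hox differences was not tested.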

How the data were processed

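RNA of bilateral RVLM punches was sequenced in 15 libraries of 4 labelled groups. Per the labels, RNA was extracted with TRIzol and libraries were made with a stranded Takara low-input SMART-seq kit. The authors aligned paired reads with STAR in MAPR-Seq 3.0 to GRCm38.p6 with Gencode vM23, and the submitters' processing notes name FastQC. The counting program and its strand setting are not given in the sources used here. As deposited by the authors, the table holds raw whole-number read counts per gene, not normalized, with 0 columns unmapped. The other deposited tables hold the authors' RPKM, log2 fold change and FDR and were not used.

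Members and lists were chosen with earlier results of these data known. Of 21926 protein-coding genes, the 15386 above 1 CPM in any library entered a quasi-likelihood fit in edgeR 4.0.16 under R 4.3.3, with TMM scaling and a mean for each group over all 15 libraries. CPM is over protein-coding counts with TMM factors. Single genes also had exact permutation tests on log2(CPM + 0.5). Neighbouring genes inside the clusters were tested in the same way over all biotypes. Given in every library were members past the adjusted p in any comparison, and in each cluster the member with the highest level per kilobase and that with the highest paralog number past the filter; list genes named were up to 3 of those called. Alternatives included DESeq2 1.42.0, limma 3.58.1 voom, other scaling and filters, and leaving out each library. Replicates' counts differed beyond sampling noise (lowest chi-square per degree of freedom 5.448). On simulated counts for DOCA-WT against Baseline-WT over 15386 genes, 69% of 2-fold and 89% of 4-fold changes were recovered. The changed genes were drawn at random, so these rates do not carry over to Hox members with a wide replicate spread, such as Hoxb5. Depth ran from 19053970 to 30504796 counts per library, of which 407 to 6817 were in Hox genes. Results for 1 member are not reported here.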

Additional observations from a re-analysis of the deposited data

Results flagged for a closer look

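In groups of 4 libraries, the gap of the extreme library to its nearest neighbour was compared with the range of the group by Dixon's criterion for 23 quantities, which gave 69 groups. Chance marks about 1 in 20 groups, and 11 of 69 were marked. In 6 of the 11 the extreme library was DOCA-WT replicate 3, with 9.05 CPM of Hoxd1 (next 1.58), 19.4 CPM of Hoxa5 (next 3.88), 1.3 CPM of Hoxa6 (next 0.125), 1.55 CPM of Hoxb6 (next 0.174), 1.66 CPM of Hoxc6 (next 0.417) and 1.41 CPM of Hoxd8 (next 0.208). These marks come from 1 library and are not separate observations. Hoxa6, Hoxb6, Hoxc6 and Hoxd8 passed the filter only through this library, so its place at their top was fixed in advance. Their marks cannot be set against the chance rate. Inferior olive markers were also highest in it, at 626 CPM in sum, and their part was not tested. Baseline-CRE replicate 2 was low in Hoxd4, at 0.128 CPM (next 6.03). In Baseline-WT, replicate 2 was high in Hoxd3, at 12 CPM (next 7.3), and replicate 4 in Hoxa4, at 6.56 CPM (next 3.14). Marks on very few reads were Hoxc6 in Baseline-WT replicate 4, at 0.164 CPM, and Hoxa6 in Baseline-CRE replicate 4, at 0.158 CPM, with all other libraries of each group at 0.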

How the results depend on the processing

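For DOCA-WT against Baseline-WT the count of 5 higher Hox genes was 4 to 6 under DESeq2, limma voom, size factors, library totals and other filters, but 3 with only the groups compared, 3 with the sex pattern as a term and 3 at 2-fold or more. Leaving out each library in turn gave 0 to 8. Without DOCA-WT replicate 3 and the library labelled DOCA-CRE replicate 3 it was 0, and without Baseline-CRE replicate 2 and DOCA-WT replicate 3 it was 2 (Hoxd3 and Hoxb3); these pairs were chosen after the data were examined. Replicate numbers did not pair the libraries (8 of 21 same-numbered pairs had a correlation above 0.1), and with the replicate number as a block the count was 0. The 5 called genes kept their sign in the alternatives that could test them, with adjusted p from 0.00842 to 0.153 for Hoxa2, 0.0111 to 0.134 for Hoxb2, 0.0127 to 0.134 for Hoxb3, 0.00331 to 0.136 for Hoxd3 and 0.0109 to 0.114 for Hoxc6 over all of them. Library totals alone moved the median log2 difference of all genes to 0.124 in this comparison. The cause of these changes was not tested.

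For DOCA-CRE against Baseline-CRE, 0 lower genes became 0 to 1 without single libraries and 2 under each of the paired omissions (Hoxb5 and Hoxc4, and Hoxd4 and Hoxa4). For DOCA-CRE against DOCA-WT DESeq2 called 1. For the difference between responses DESeq2 called 2, library totals 1, and single omissions gave 0 to 4. Signs were recomputed for 10 members in 3 comparisons, and those that turned belonged to members with few reads. They were, in DOCA-CRE against DOCA-WT, Hoxa7 at 0.19 without DOCA-CRE replicate 1 (from -1.55 to 0.19 without single libraries), and Hoxb6 at 0.23 under limma voom and 0.05 without DOCA-CRE replicate 1 (-2.84 to 0.05). In the difference between responses it was Hoxd8, at 0.01 with the sex term, 0.04 without Baseline-CRE replicate 3 and 0.16 without DOCA-CRE replicate 1 (-2.15 to 0.16). Between the DOCA-salt and baseline cohorts the 14 broadly measured members, 11 higher and 3 lower, became 7 and 7 without DOCA-WT replicate 3, 4 and 10 without it and the library labelled DOCA-CRE replicate 3, and 5 and 9 without it and Baseline-CRE replicate 2. Members past the filter were 12 at 1 count in every library and 14 to 19 without single libraries. Called genes over the partner and marker lists numbered 34, 55 under limma voom, and 21 to 40 without single libraries. The summed level of paralogs 1 to 3 was 32.6 CPM in DOCA-CRE and 30.6 CPM in Baseline-WT. It was 24.6 and 22.9 CPM over all biotypes, and 27.5 and 26.5 CPM with equal weight per member. A mean paralog number with equal weights has no defined value and was not run. Members under 1 CPM rest on few reads, and depth limits what can be shown for them.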
